A study of Mus musculus with 11 samples.

Results

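The citric acid cycle module described here comprised 30 genes chosen by name from the 55487 gene identifiers of the deposited table. They encode subunits of the cycle's enzymes, of the complexes that feed it pyruvate, and of enzymes that exchange its intermediates with pyruvate and amino acids. Each of the 30 symbols matched 1 identifier in a GENCODE annotation of GRCm38, all 30 were annotated as protein-coding, and all 30 passed the filter on low counts and were tested among 23779 genes. In the libraries their raw counts ran from 277 for Me2 to 186303 for Ogdh.

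RNA sequencing was done on hearts of female C57BL/6NTac mice, an inbred strain, that entered the study at 8 weeks of age and were then kept for 24 weeks on 1 of 2 feeding regimes. The control group (n = 4 libraries) ate a diet with 10.4% of its energy from fat and 69.1% from carbohydrate. The obese group (n = 4) ate an obesogenic combination of sweetened condensed milk and a pellet that derived 60.3% of its calories from fat, and was given the vehicle, 10% PEG400, by gavage from week 16. The treated group (n = 3) ate the same obesogenic combination and from week 16 received dasatinib, a tyrosine kinase inhibitor, at 5 mg/kg and quercetin, a plant flavonoid, at 50 mg/kg in that vehicle, a mixture meant to clear senescent cells. No source used here states whether control mice were gavaged, so diet and gavage cannot be told apart between the control and obese groups. Below, a change with diet means a difference between these groups, whichever of the 2 it came from. Since nothing in the labels ties every library to its own animal, p-values measure only the spread between these libraries, which may be technical.

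In the citric acid cycle, citrate synthase joins acetyl-CoA to oxaloacetate, and later steps oxidise the citrate back to oxaloacetate while reducing NAD+ and a flavin bound to succinate dehydrogenase. The heart relies on this cycle, fed mostly by fatty acid oxidation and also by pyruvate, ketone bodies and amino acids, to supply electrons to the respiratory chain. Enzymes that carboxylate pyruvate, decarboxylate malate or transfer amino groups add or remove cycle intermediates. The cytosolic and mitochondrial forms of malate dehydrogenase and aspartate aminotransferase are the enzymes of the malate-aspartate shuttle, which also needs carriers.

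Promoters of 4 members are shown because most members moved together with diet. Sucla2 had the lowest fold change with diet, Gpt2 the highest, and Sdha and Sdhd are subunits of 1 enzyme with matches to motifs of respiratory gene regulators. The windows are from RefSeq on GRCm38.p6, run 5′ to 3′ on the gene's strand, and hold 250 bases before and 50 bases after an annotated start site. Capitals mark matches to the motifs searched on both strands, which were GCGCANGCG for NRF1, TNAAGGTCA for ESRRA, CCGGAAGT for ETS factors and AANATGGCG for YY1, where N is any base.
Sdha, chr13:74350191-74350490, minus strand: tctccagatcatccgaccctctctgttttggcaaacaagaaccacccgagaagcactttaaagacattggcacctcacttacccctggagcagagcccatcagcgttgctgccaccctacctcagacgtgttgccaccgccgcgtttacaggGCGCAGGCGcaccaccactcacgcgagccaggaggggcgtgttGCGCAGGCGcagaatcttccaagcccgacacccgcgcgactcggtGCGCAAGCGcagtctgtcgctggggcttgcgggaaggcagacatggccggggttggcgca
Sdhd, chr9:50603800-50604099, minus strand: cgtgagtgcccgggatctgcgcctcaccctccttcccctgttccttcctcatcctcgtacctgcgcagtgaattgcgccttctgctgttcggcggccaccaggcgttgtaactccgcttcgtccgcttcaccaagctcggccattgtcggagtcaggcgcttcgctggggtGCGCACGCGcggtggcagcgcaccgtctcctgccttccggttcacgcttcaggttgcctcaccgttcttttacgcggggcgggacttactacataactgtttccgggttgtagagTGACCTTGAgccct
Sucla2, chr14:73552536-73552835, plus strand: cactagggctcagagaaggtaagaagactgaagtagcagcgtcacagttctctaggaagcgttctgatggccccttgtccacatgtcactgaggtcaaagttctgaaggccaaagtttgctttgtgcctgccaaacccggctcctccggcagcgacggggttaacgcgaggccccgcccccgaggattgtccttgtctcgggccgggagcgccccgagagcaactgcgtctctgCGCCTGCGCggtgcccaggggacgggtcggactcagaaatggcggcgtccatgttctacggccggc
Gpt2, chr8:85492326-85492625, plus strand: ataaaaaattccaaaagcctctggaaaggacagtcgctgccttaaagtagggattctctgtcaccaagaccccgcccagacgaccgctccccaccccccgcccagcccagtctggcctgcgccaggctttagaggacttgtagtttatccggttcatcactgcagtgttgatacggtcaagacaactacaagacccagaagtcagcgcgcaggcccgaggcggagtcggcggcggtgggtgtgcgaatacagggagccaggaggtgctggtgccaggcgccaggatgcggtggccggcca
The Sdha window held 3 matches to the NRF1 motif, beginning 98, 55 and 10 bases before the start site. In the Sdhd window an NRF1 match began 79 bases before the start site, and an ESRRA match on the opposite strand lay at base 37 after it. Sucla2 had 1 NRF1 match on the opposite strand, 16 bases before its start, and the Gpt2 window held no match. RefSeq windows were found for 26 of the 30 members, and the NRF1 motif was present for 5 of these genes (Ogdh, Dld, Sucla2, Sdha and Sdhd), or 19.2%, against 7.03% of 27025 genes with a window. The ESRRA motif was present for 1 of the 26 (Sdhd) against 1.43% of all genes, the ETS motif for 1 (Dlst) against 4.31%, and the YY1 motif for 2 (Idh3g and Ogdh) against 2.76%. No match to one motif overlapped a match to another in the members' windows. A match describes letters in a window and is neither a binding site nor a cause.

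The libraries differed in several measures besides group. Total counts, in units of 1000000, ran from 73.1 to 103.3 for control libraries, 52.7 to 67.3 for obese libraries and 64.2 to 72.3 for treated libraries. Genes of the mitochondrial chromosome took 28.2 to 32.3%, 21.4 to 24.5% and 17.8 to 22.4% of counts in the same order. Genes annotated as sense-intronic or as TEC, a class of unprocessed transcripts with no experimental support yet, together called the intronic share below, took 0.286 to 0.59%, 0.663 to 0.811% and 0.509 to 0.671%. The labelled tissue was checked with 12 cardiomyocyte markers, which summed to 82590 to 112600, 76640 to 99770 and 85170 to 99170 counts per 1000000 (CPM). Markers of atrial cardiomyocytes set 3 libraries apart, obese replicate 3 and treated replicates 2 and 3, whose mean log2 CPM over 7 markers was 7.88, 7.46 and 9.04, against -0.57 to 4.69 in the other 8 libraries.

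Levels are CPM on library sizes scaled by TMM (trimmed mean of M values), and are compared between genes only as CPM per kb of exonic length. On the control diet the highest level belonged to Idh2, the NADP+-dependent mitochondrial isocitrate dehydrogenase, at 546.4 ± 65.7 CPM per kb (SD, n = 4). Mdh1, the cytosolic malate dehydrogenase, followed at 390.2 ± 77.8 and Ogdh, the E1 subunit of 2-oxoglutarate dehydrogenase, at 377.7 ± 52.5. Libraries of Mdh1 and Ogdh overlapped, and the lowest of Idh2, at 466.7, lay just above the highest of Mdh1, at 465.9. The lowest library of Ogdh, at 302.9, lay above the highest of Sdhb, the next gene, at 240.9. From Sdhb (192.2 ± 41.0) through Cs, Got1, Sdha, Got2, Mdh2 and Sdhd to Idh3g (136.2 ± 22.4) each gene overlapped its neighbour in the order. At the low end stood Gpt2, at 3.71 ± 0.478, Me3, at 3.28 ± 0.408, Gpt, at 2.89 ± 0.315, and Me2, at 1.18 ± 0.0942. Gpt2, Me3 and Gpt each overlapped the next in the order, and all Me2 libraries lay below those of Gpt. With the length of the longest transcript in place of all exons, Me3 stood at 10.7 and Ogdh, at 499.3, passed Mdh1, at 472.1, while Idh2 and Me2 kept their places at the ends of the order.

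**Figure D1:**
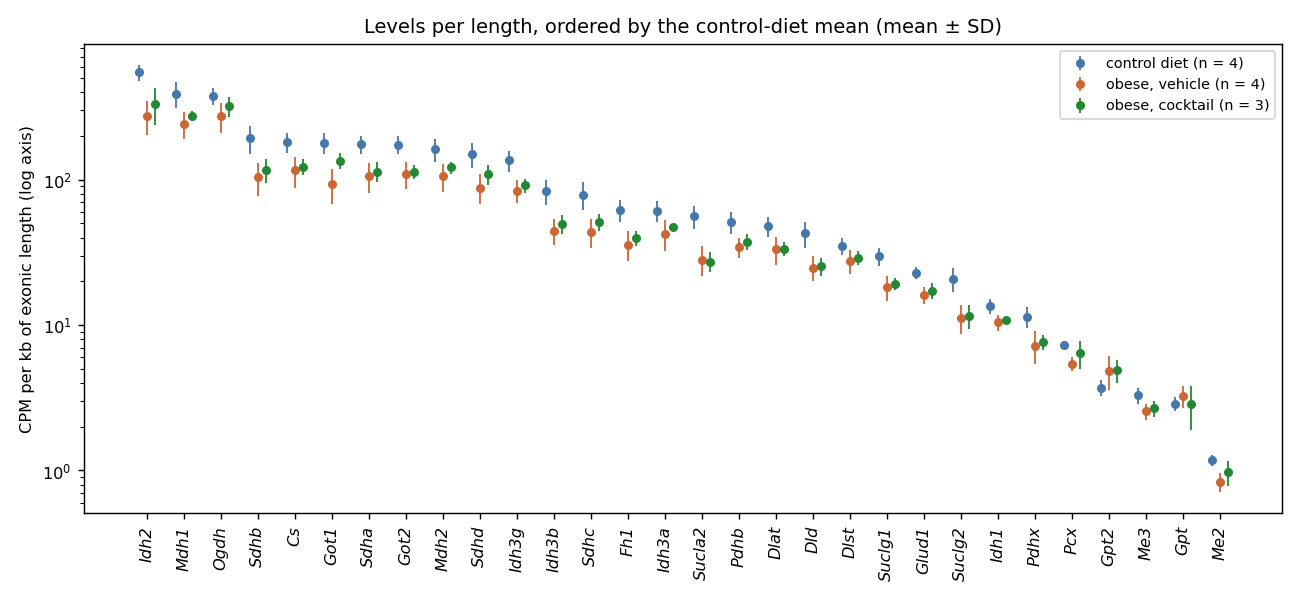
Mean level (points) and SD (bars) of the 30 genes as CPM per kb of exonic length on a log axis, in 4 control-diet, 4 obese and 3 treated libraries, ordered by the control-diet mean. Idh2 stood highest at 546.4 and Me2 lowest at 1.18 on the control diet.

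Obese hearts were compared with control-diet hearts to ask how transcript levels differed between these groups. Transcripts of 26 of the 30 genes were lower in obese hearts by edgeR's quasi-likelihood test at an adjusted p under 0.05, 0 were higher, and 4 (Ogdh, Dlst, Gpt and Gpt2) did not pass. Over all genes tested, 30.1% were called, 15.7% lower and 14.4% higher. The median log2 fold change of the 30 was -0.67, with a range from -0.99 for Sucla2 to 0.39 for Gpt2, while the median of all tested genes was 0.11. All 6 genes from citrate to 2-oxoglutarate, all 4 of succinate dehydrogenase and all 3 from fumarate to oxaloacetate fell, as did 23 of 26 members with a mitochondrial product and 3 of 4 with a cytosolic one (Idh1, Mdh1 and Got1, but not Gpt). The summed level of the 30 genes was 11850 ± 1800 CPM (SD, n = 4) in control hearts, 7400 ± 1610 in obese hearts and 8344 ± 1160 (n = 3) in treated hearts. As a share of counts on nuclear genes, which needs no scaling factor, the sum was 1.39% ± 0.105, 1.06% ± 0.164 and 1.16% ± 0.121. As a share of all counts, which needs none either, it was 0.974% ± 0.0621, 0.815% ± 0.116 and 0.924% ± 0.0726. By both shares obese replicate 4 (1.27% and 0.96%) lay above control replicate 2 (1.24% and 0.887%).

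The libraries of the control and obese groups did not overlap for 16 of the 30 members, against 28.5% of all tested genes. Of the 14 members that overlapped, 11 did so only because control replicate 2 lay at or below obese replicate 4. Control replicate 2 was the lowest control library for 27 members, and obese replicate 4 the highest obese library for 28. Obese replicate 2 was the lowest of its group for 24. Library differences within a group were therefore shared by nearly all of these genes. The coefficient of variation between libraries had a median over the 30 genes of 16.1% for control, 22.1% for obese and 12.9% for treated libraries.

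**Figure D2:**
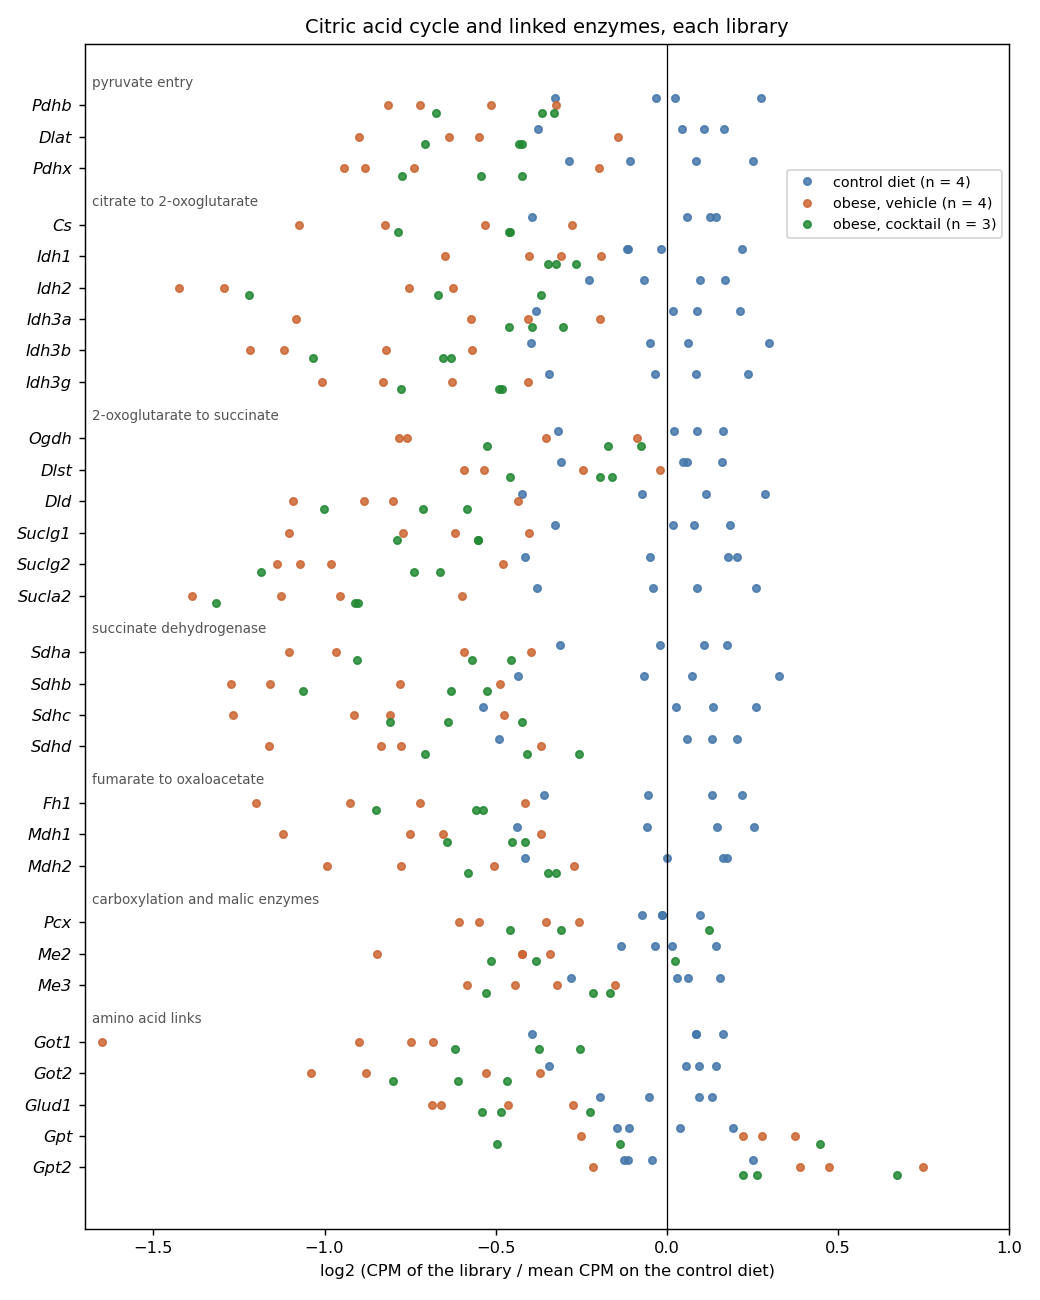
Each point is 1 library, placed at the log2 ratio of its CPM to the control-diet mean of that gene, with genes grouped by their step. Obese libraries lie left of 0 for 28 genes on average and right of 0 for Gpt and Gpt2, and on plain library totals Idh1, Dlst and Me3 would also lie right of 0.

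Of the 26 calls, 18 held in each of 11 fits that left out 1 library, and the same 18 held under 13 further settings of scaling, filter, test, pairing and covariate, the intronic covariate and plain totals below not among them. The other 8 (Dlat, Cs, Idh1, Idh3a, Mdh2, Pcx, Me2 and Me3) lost significance without at least 1 library, and the count of lower members ran from 18 without control replicate 1 to 28 without control replicate 2 or obese replicate 4. With the intronic share of each library as a covariate, 0 of the 30 passed and their median log2 fold change was -0.06, and 35 genes rose and 85 fell among all those tested. The intronic share did not overlap between the control and obese libraries, so the share and the group cannot be told apart. With genes of the mitochondrial chromosome left out before scaling, 26 members were lower, as before. On plain library totals, an alternative chosen after seeing the data, 11 members were called lower and 2 (Gpt and Gpt2) higher. The median of all genes moved by 0.42. The members' median minus that of all genes was -0.78 with TMM and -0.77 on plain totals. A change of scaling moves all genes nearly alike, so this difference cannot show which scaling is right.

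**Figure D3:**
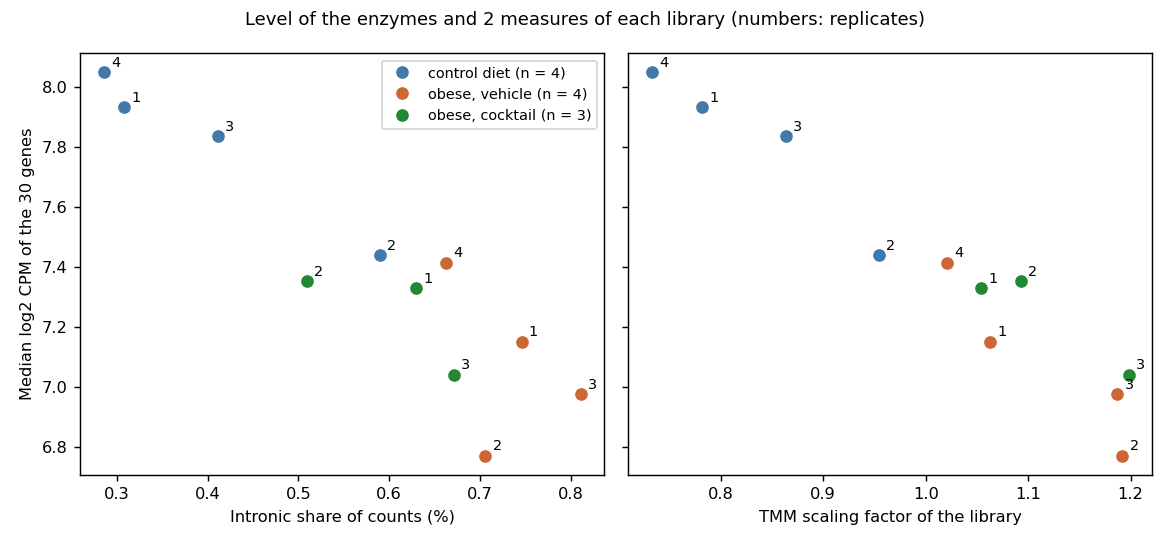
Median log2 CPM of the 30 genes in each library against the intronic share of its counts (left, %) and its TMM scaling factor (right), with replicate numbers beside the points. Control replicate 2, at 7.44, lies beside obese replicate 4, at 7.41, in both panels, with intronic shares of 0.59% and 0.663%.

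The 3 pyruvate dehydrogenase genes, which convert pyruvate to acetyl-CoA, fell in obese hearts, with a median log2 fold change of -0.58. Pdhx, the protein that anchors the E3 enzyme to the complex core, read 47.7, 36.8, 41.7 and 53.5 CPM in control replicates 1 to 4, 26.9, 24.4, 23.4 and 39.1 CPM in obese replicates 1 to 4 and 30.8, 33.5 and 26.2 CPM in treated replicates 1 to 3. Only obese replicate 4 reached the control range, just above control replicate 2, and the other obese libraries lay below it. The change was a log2 fold change of -0.66 ± 0.17 (SE, adjusted p = 0.0107), or 1.58-fold lower. Dlat, the E2 acetyltransferase, read 252, 180.1, 241 and 263 CPM in control replicates 1 to 4, 160.1, 126, 151 and 212 CPM in obese replicates 1 to 4 and 174, 173 and 143 CPM in treated replicates 1 to 3. Its obese replicate 4 lay above control replicate 2 and the other 3 below all controls. Dlat gave a log2 fold change of -0.53 ± 0.17 (SE, adjusted p = 0.028), and removal of any control library but replicate 2, or of obese replicate 1, 2 or 3, ended the call, with adjusted p-values up to 0.0762. Pdhb, the E1 beta subunit, averaged 198 ± 33.3 CPM (SD, n = 4) on the control diet and 132 ± 20.4 in the obese group, a log2 fold change of -0.58 ± 0.15 (SE, adjusted p = 0.0113).

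From citrate to 2-oxoglutarate all 6 genes fell, with a median of -0.67, and the falls were unequal. Idh3b, a regulatory subunit of the NAD+-dependent isocitrate dehydrogenase, read 299, 218, 277 and 353 CPM in control replicates 1 to 4, 162, 123, 132 and 193 CPM in obese replicates 1 to 4 and 185, 182 and 140 CPM in treated replicates 1 to 3. All obese libraries lay below all controls. The change in Idh3b was a log2 fold change of -0.91 ± 0.18 (SE, adjusted p = 0.00265). Idh3a, the catalytic subunit of the same enzyme, read 331, 239, 315 and 360.4 CPM in control replicates 1 to 4, 209, 147, 235 and 272 CPM in obese replicates 1 to 4 and 237, 252 and 226 CPM in treated replicates 1 to 3. Here obese replicate 4 lay above control replicate 2, and the change was smaller at a log2 fold change of -0.53 ± 0.18 (SE, adjusted p = 0.0375). Leaving out control replicate 1, 3 or 4 or obese replicate 1 or 2 ended the Idh3a call, with adjusted p-values of 0.0701 to 0.102. Idh3g, the third subunit, averaged 368 ± 60.5 and 227 ± 41.0 CPM, a log2 fold change of -0.70 ± 0.16 (SE, adjusted p = 0.00587). In the annotation Idh3b lies at chr2:130279309-130284547 on the minus strand of GRCm38 and shares 5 exonic bases with Nop56 on the opposite strand.

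Idh2, which regenerates NADPH in mitochondria, read 1589, 1208, 1349 and 1511 CPM in control replicates 1 to 4, 839, 577, 527 and 917 CPM in obese replicates 1 to 4 and 1095, 889 and 607 CPM in treated replicates 1 to 3. Each obese library was below each control library, and obese replicates 2 and 3 were lowest. Idh2 was 1.98-fold lower, a log2 fold change of -0.98 ± 0.21 (SE, adjusted p = 0.0048). Idh1, its cytosolic and peroxisomal counterpart, read 43.8, 34.8, 37.1 and 34.7 CPM in control replicates 1 to 4, 28.4, 24.0, 32.9 and 30.3 CPM in obese replicates 1 to 4 and 31.2, 29.99 and 29.5 CPM in treated replicates 1 to 3. Groups did not overlap, yet the change was only a log2 fold change of -0.38 ± 0.11 (SE, adjusted p = 0.022), removing control replicate 1, obese replicate 1 or obese replicate 2 ended the call (adjusted p 0.0699, 0.053 and 0.0609), and the direction flipped on plain library totals. Cs, citrate synthase, averaged 1047 ± 169 CPM on the control diet and 669.5 ± 159.9 in the obese group, a log2 fold change of -0.64 ± 0.18 (SE, adjusted p = 0.0182), and its adjusted p was 0.0505 without control replicate 1.

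Of the 6 genes from 2-oxoglutarate to succinate, 4 fell and the 2 core subunits of 2-oxoglutarate dehydrogenase did not pass. Sucla2, the ADP-specific beta subunit of succinyl-CoA synthetase, had the lowest fold change of the module and read 237, 171, 217 and 267 CPM in control replicates 1 to 4, 115, 85.2, 102 and 147 CPM in obese replicates 1 to 4 and 119, 119 and 89.4 CPM in treated replicates 1 to 3. Its obese and treated libraries all lay below the controls. The diet change was a log2 fold change of -0.99 ± 0.18 (SE, adjusted p = 0.00187), 1.98-fold lower. Suclg2, the GTP-specific beta subunit, averaged 96.4 ± 18.0 and 51.9 ± 11.7 CPM, a log2 fold change of -0.89 ± 0.18 (SE, adjusted p = 0.00305). Suclg1, the alpha subunit shared by both forms, averaged 137 ± 19.8 and 84.4 ± 16.7 CPM, a log2 fold change of -0.70 ± 0.15 (SE, adjusted p = 0.00461). Neither gene's obese libraries overlapped the controls.

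Ogdh, the E1 subunit that decarboxylates 2-oxoglutarate, read 2309, 1653, 2090 and 2192 CPM in control replicates 1 to 4, 1614, 1199, 1217 and 1941 CPM in obese replicates 1 to 4 and 1957, 1830 and 1432 CPM in treated replicates 1 to 3. Obese replicate 4 lay within the control range and replicate 1 just below it. Its log2 fold change was -0.47 ± 0.18 (SE, adjusted p = 0.0699, not passing) and passed without control replicate 2 (adjusted p = 0.0253), without obese replicate 4 (0.0189) and by DESeq2 (0.0223). Dlst, the E2 succinyltransferase, read 348, 269, 344 and 373 CPM in control replicates 1 to 4, 282, 221, 230.4 and 329 CPM in obese replicates 1 to 4 and 299, 291 and 243 CPM in treated replicates 1 to 3. Obese replicates 1 and 4 both exceeded control replicate 2, and the log2 fold change was -0.33 ± 0.15 (SE, adjusted p = 0.113, not passing). It passed without control replicate 2 (adjusted p = 0.031) or obese replicate 4 (0.0338), and its direction flipped on plain library totals. Dld, the E3 enzyme that serves both this complex and pyruvate dehydrogenase, averaged 157 ± 31.8 and 91.4 ± 18.0 CPM without overlap, a log2 fold change of -0.78 ± 0.17 (SE, adjusted p = 0.0049).

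All 4 subunits of succinate dehydrogenase, which is also complex II of the respiratory chain, fell, and their median of -0.80 was the lowest of the 7 role groups. Sdhc, a membrane anchor that binds ubiquinone, read 281, 176, 260.3 and 306 CPM in control replicates 1 to 4, 146, 106, 136 and 184 CPM in obese replicates 1 to 4 and 164, 191 and 146 CPM in treated replicates 1 to 3. Control replicate 2 was below obese replicate 4, and every other control library was above all obese ones. Sdhc changed by a log2 fold change of -0.84 ± 0.19 (SE, adjusted p = 0.0059). Sdhd, the other membrane anchor, read 201, 131, 191 and 212 CPM in control replicates 1 to 4, 107, 82.2, 102.9 and 142 CPM in obese replicates 1 to 4 and 139, 154 and 113 CPM in treated replicates 1 to 3. Its groups overlapped through the same pair of libraries, and the change was a log2 fold change of -0.76 ± 0.18 (SE, adjusted p = 0.00861). Sdha, the flavoprotein whose promoter held 3 NRF1 matches, averaged 726 ± 103.4 and 436 ± 98.9 CPM, a log2 fold change of -0.74 ± 0.18 (SE, adjusted p = 0.00784). Sdhb, the iron-sulfur subunit, averaged 430.4 ± 91.9 and 232 ± 58.9 CPM, a log2 fold change of -0.89 ± 0.20 (SE, adjusted p = 0.00605). For Sdha and Sdhb the control and obese libraries did not overlap.

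The 3 genes from fumarate to oxaloacetate fell, with a median of -0.70. Fh1, fumarate hydratase, read 229.5, 163, 202 and 244 CPM in control replicates 1 to 4, 127, 91.2, 110.3 and 157 CPM in obese replicates 1 to 4 and 142, 145 and 116 CPM in treated replicates 1 to 3. No obese library reached a control one, and the change was a log2 fold change of -0.79 ± 0.17 (SE, adjusted p = 0.00482). Mdh2, the mitochondrial malate dehydrogenase, read 645, 433, 577 and 651 CPM in control replicates 1 to 4, 406, 289.7, 337 and 477 CPM in obese replicates 1 to 4 and 460, 453 and 385 CPM in treated replicates 1 to 3. Obese replicate 4 was above control replicate 2 alone, and the change was a log2 fold change of -0.61 ± 0.17 (SE, adjusted p = 0.0183). The Mdh2 call was lost without control replicate 1 or 4 or obese replicate 2 (adjusted p 0.0524, 0.0534 and, rounded, 0.05). Mdh1, its cytosolic form, averaged 1002 ± 199.7 and 617 ± 129.8 CPM, a log2 fold change of -0.70 ± 0.18 (SE, adjusted p = 0.0114), and shares 52 exonic bases with Wdpcp.

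Pyruvate carboxylase and both mitochondrial malic enzymes also fell, by less, with a median of -0.43. Pcx, which makes oxaloacetate from pyruvate, read 37.3, 34.5, 34.5 and 33.1 CPM in control replicates 1 to 4, 27.3, 22.8, 23.8 and 29.1 CPM in obese replicates 1 to 4 and 37.9, 28.1 and 25.4 CPM in treated replicates 1 to 3. Its 4 control libraries were the most tightly grouped of any member, with a coefficient of variation of 5.0%, and all obese libraries lay below them. The change was a log2 fold change of -0.43 ± 0.13 (SE, adjusted p = 0.0211), and it did not pass when control replicate 1, obese replicate 2 or obese replicate 3 was removed (adjusted p 0.0542, 0.0607 and, rounded, 0.05). Me3, an NADP+-dependent malic enzyme, read 50.0, 39.5, 48.9 and 53.5 CPM in control replicates 1 to 4, 38.4, 32.1, 35.3 and 43.2 CPM in obese replicates 1 to 4 and 41.3, 42.7 and 33.3 CPM in treated replicates 1 to 3. Obese replicate 4 exceeded control replicate 2, the change was a log2 fold change of -0.37 ± 0.13 (SE, adjusted p = 0.0432), and its direction flipped on plain library totals. Leaving out any library other than control replicate 2, obese replicate 4 and the treated ones ended the Me3 call, with adjusted p-values of 0.0715 to 0.114. Exons of Me3, which spans chr7:89632392-89854359 on the plus strand of GRCm38, share 569 bases with the antisense gene A230065N10Rik, and reads of these genes cannot be told apart without a stated use of strand. Me2, an NAD+-dependent malic enzyme, averaged 8.53 ± 0.683 and 6.05 ± 0.888 CPM, a log2 fold change of -0.49 ± 0.15 (SE, adjusted p = 0.0259), and did not pass on removal of control replicate 1 or 4 or of obese replicate 1 (adjusted p 0.072, 0.0546 and 0.0749).

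Among the 5 enzymes that link the cycle to amino acids, the aspartate aminotransferases and glutamate dehydrogenase fell and the alanine aminotransferases did not pass. Got1, the cytosolic aspartate aminotransferase, read 510.4, 347, 484 and 483 CPM in control replicates 1 to 4, 245, 145, 272 and 284 CPM in obese replicates 1 to 4 and 382, 352 and 297 CPM in treated replicates 1 to 3. The obese libraries all lay below the controls, and obese replicate 2 was lowest. Got1 was 1.93-fold lower, a log2 fold change of -0.95 ± 0.20 (SE, adjusted p = 0.00389). Got2, the mitochondrial form, averaged 842 ± 122 and 526 ± 111 CPM, a log2 fold change of -0.68 ± 0.17 (SE, adjusted p = 0.00927). Glud1, glutamate dehydrogenase, averaged 96.5 ± 9.77 and 67.7 ± 9.21 CPM, a log2 fold change of -0.51 ± 0.12 (SE, adjusted p = 0.00786). Neither Got2 nor Glud1 overlapped between the 2 groups, and Got2 shares 434 exonic bases with the TEC gene Gm45760.

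Gpt and Gpt2, the cytosolic and mitochondrial alanine aminotransferases that interconvert alanine and pyruvate, were the members with obese means above the control means. Gpt read 8.72, 7.67, 9.70 and 7.86 CPM in control replicates 1 to 4, 10.3, 9.90, 7.13 and 11.01 CPM in obese replicates 1 to 4 and 11.6, 7.71 and 6.02 CPM in treated replicates 1 to 3. Obese replicates 1, 2 and 4 lay above every control library, and replicate 3 lay below them. Its log2 fold change was 0.17 ± 0.19 (SE, adjusted p = 0.516, not passing). Gpt2 read 19.4, 20.3, 24.9 and 19.2 CPM in control replicates 1 to 4, 27.5, 18.0, 29.1 and 35.2 CPM in obese replicates 1 to 4 and 33.4, 24.4 and 25.2 CPM in treated replicates 1 to 3. Again 3 obese libraries were above all controls, and here obese replicate 2 was below them. Gpt2 gave 0.39 ± 0.18 (SE, adjusted p = 0.113, not passing), and passed as higher without obese replicate 2 (adjusted p = 0.0183).

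Because nearly all members shared each library's shift, each was also set against the median of the other members in its library, a description chosen after values were seen. Relative to that median, 2 members were lower in every obese library than in every control library, Sucla2 by a difference in means of -0.29 and Idh3b by -0.15 on the log2 scale. Another 8 were higher without overlap, namely Dlat, Idh3g, Ogdh, Dlst, Mdh2, Me3, Gpt and Gpt2, from 0.06 for Idh3g to 1.07 for Gpt2. Measured in the same way, 1.04% of all tested genes were lower and 39.9% higher. In the treated group relative to the obese group, Sdhd (0.16) and Got1 (0.42) were higher and Dld (-0.13) and Sucla2 (-0.19) lower without overlap, against 0.841% and 5.54% of all genes. In the treated group relative to the control group, 8 members were higher, from 0.11 for Sdhd to 0.94 for Gpt2, and 4 lower, namely Sucla2 (-0.49), Suclg2 (-0.30), Dld (-0.20) and Idh3b (-0.15), against 36.8% and 1.62% of all genes.

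Ratios between related genes of 1 library are nearly free of scaling. For 8 ratios in 3 comparisons, 24 two-sided exact permutation tests were made, and the smallest adjusted p was 0.114, so none passed. The smallest p-value that these group sizes allow is 0.0286. The log2 ratio of Idh2 to Idh1 was 5.18, 5.12, 5.18 and 5.45 in control replicates 1 to 4, 4.88, 4.59, 4.003 and 4.92 in obese replicates 1 to 4 and 5.13, 4.89 and 4.36 in treated replicates 1 to 3. Obese libraries were all below control libraries, by 0.63 on average (exact permutation p = 0.0286, adjusted p = 0.114). The log2 ratio of Idh3b to Idh3a was -0.15, -0.13, -0.19 and -0.03 in control replicates 1 to 4, -0.37, -0.25, -0.83 and -0.49 in obese replicates 1 to 4 and -0.36, -0.47 and -0.69 in treated replicates 1 to 3. Both groups on the obesogenic diet lay below all controls, with differences in means of -0.36 and -0.38 (exact permutation p = 0.0286 for each, adjusted p = 0.114). Idh2 to Idh3a also separated obese from control libraries, with a difference of -0.47 and the same p-values. Obese replicate 3, the obese library set apart by its atrial markers, had the lowest value of all 3 ratios. The 3 ratios share Idh2 and Idh3a and so are not separate observations, and a link to the atrial markers was not tested.

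The log2 ratio of Got2 to Got1 was 0.87, 0.93, 0.86 and 0.90 in control replicates 1 to 4, 1.25, 1.496, 0.75 and 1.20 in obese replicates 1 to 4 and 0.67, 0.65 and 0.70 in treated replicates 1 to 3. Treated libraries lay below all others, with a difference of -0.50 from the obese group (exact permutation p = 0.0571, adjusted p = 0.137) and of -0.21 from the control group (exact permutation p = 0.0286, adjusted p = 0.114). Gpt2 to Gpt was higher by 0.45 in treated than in control libraries without overlap, with the same p-values as that difference. Mdh2 to Mdh1, Suclg2 to Sucla2 and Me3 to Me2 overlapped between obese and control libraries, with differences in means of 0.08, 0.10 and 0.14. Suclg2 to Sucla2 was higher by 0.18 in treated than in control libraries, and Mdh2 to Mdh1 by 0.08, both without overlap (exact permutation p = 0.0571, adjusted p = 0.137).

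**Figure D4:**
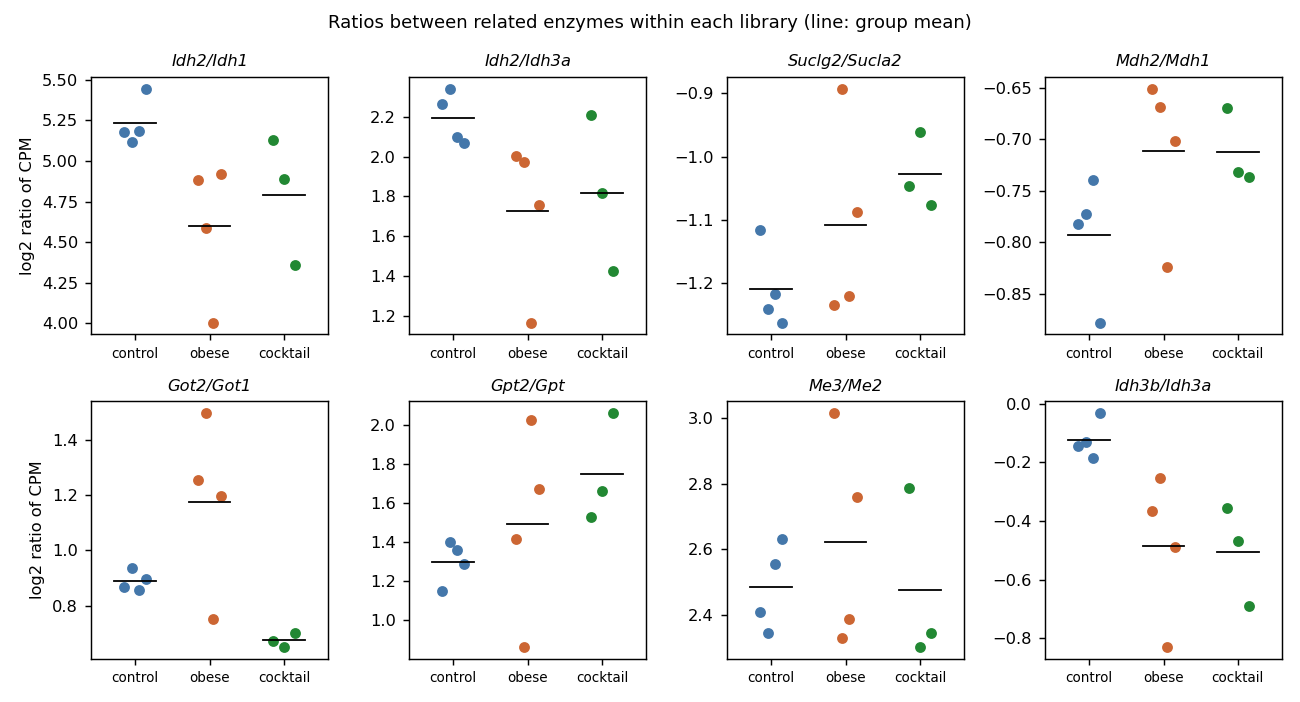
Log2 ratio of CPM between related genes in each library (points) with group means (lines), for 8 pairs, each panel with its own axis. The obese libraries lie below all controls for Idh2/Idh1, Idh2/Idh3a and Idh3b/Idh3a, and the treated libraries lie below all others for Got2/Got1.

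Treated hearts were compared with vehicle-treated obese hearts to ask what the dasatinib and quercetin mixture changed. By edgeR, 0 of the 30 members passed in either direction, as did 0 of all tested genes (a share called of 0%), and DESeq2 and limma voom also called 0 members. Over all genes DESeq2 called 53 higher and 67 lower. With an unadjusted p under 0.05, edgeR counted 1 member, Got1, against 10.2% of all genes. Got1, with a treated mean of 343.7 ± 43.3 CPM (SD, n = 3) and an obese mean of 236.4 ± 62.9 (n = 4), had each treated library above each obese one in the values given above. Its log2 fold change was 0.54 ± 0.21 (SE), with an adjusted p of 0.426 by edgeR, 0.232 by DESeq2 and 0.414 by voom. It was the 1 member without overlap in this comparison, against 10.1% of all genes.

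The next smallest p-values belonged to Pcx, with a log2 fold change of 0.24 ± 0.14 (SE) and adjusted p = 0.554, and to Sdhd, with 0.31 ± 0.20 and adjusted p = 0.592. For Pcx, treated replicate 1, at 37.9 CPM, stood above all obese and control libraries while treated replicates 2 and 3 lay within the obese range. For Sdhd, treated replicate 2 alone stood above obese replicate 4. Log2 fold changes were above 0 for 28 members, with Sucla2 (-0.04) and Gpt (-0.19) below, and their median was 0.11 against -0.01 for all genes. The treated mean lay between the control and obese means for 27 members, and Sucla2, Gpt and Gpt2 were the exceptions. The obese mean enters both differences and nearly all members shared each library's shift, so these 27 are not separate observations. No such share was computed over all genes. The median of the 30 was 0.02 without obese replicate 2 and 0.24 without obese replicate 4, and with the intronic share as a covariate it was -0.09.

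Treated hearts compared with control hearts, which share control and treated libraries with the comparisons above, had 11 members lower and 0 higher, against 8.39% and 7.43% of all genes and 15.8% in either direction. The 11 were Pdhx, Idh3b, Idh3g, Dld, Suclg1, Suclg2, Sucla2, Sdha, Sdhb, Fh1 and Got2. The median log2 fold change was -0.51 (0.05 for all genes), and 17 members had no overlap, against 27.9% of all genes. Sucla2 was again lowest, at a log2 fold change of -1.03 ± 0.20 (SE, adjusted p = 0.00604), 2.04-fold lower, followed by Suclg2, at a log2 fold change of -0.84 ± 0.19 (SE, adjusted p = 0.0141), and Idh3b, at a log2 fold change of -0.76 ± 0.19 (SE, adjusted p = 0.0205). Idh2 had a log2 fold change of -0.71 ± 0.23 (SE, adjusted p = 0.0535, not passing). Got1 had -0.41 ± 0.21 (SE, adjusted p = 0.206, not passing), and Gpt2 0.40 ± 0.19 (SE, adjusted p = 0.167, not passing). Sucla2 was the 1 member called in all 11 fits that left out a library. Over all genes, 1036, 2722, 1388 and 1033 were lower without control replicates 1 to 4, against 1994 with all libraries. Without treated replicates 1 to 3, 1265, 1416 and 552 of all genes were lower, so calls changed far beyond the module. The count of lower members was 2, 21, 4 and 2 without control replicates 1 to 4, 6 without treated replicate 1 or 2, and 1 without treated replicate 3. Without the 3 libraries with high atrial markers it was 0, in a fit that leaves 1 treated library and assumes that it varies like the other groups, and the count over all genes went from 1994 to 139. The atrial score as a covariate left 1 member lower (1372 genes in all) and the intronic share as a covariate 0 (300 in all). On plain library totals 2 members were lower (389 in all) and 1 higher (6911 in all), and DESeq2 called 18 lower (2719 in all).

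Other genes of the pathway were taken from 4 lists, in which 0 genes rose with diet and 0 were called in treated against obese hearts. Among 10 further enzymes, 4 fell. Me1, the cytosolic malic enzyme, averaged 139.6 ± 24.8 CPM in control and 71.5 ± 12.9 CPM in obese hearts, a log2 fold change of -0.96 ± 0.16 (SE, adjusted p = 0.00118). Pdha1, the E1 alpha subunit of pyruvate dehydrogenase, averaged 669 ± 110 and 371 ± 81.2 CPM, a log2 fold change of -0.85 ± 0.17 (SE, adjusted p = 0.00319). Nnt, the proton-driven transhydrogenase that makes NADPH, also fell and is named after its values were seen. Nnt read 946, 562, 805 and 1034 CPM in control replicates 1 to 4, 96.0, 195, 114 and 425 CPM in obese replicates 1 to 4 and 274, 229 and 259.6 CPM in treated replicates 1 to 3, with all obese and treated libraries below the controls. Its fitted change was a log2 fold change of -2.01 ± 0.42 (SE, adjusted p = 0.00542), but the annotation holds 2 identifiers of Nnt over the same positions, between which reads could be split. Their summed level was 798.9 to 1225 CPM for control, 289 to 490.4 for obese and 329.5 to 550.2 for treated libraries.

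Of 12 assembly, lipoylation and cofactor genes, 8 fell, and the smallest p-values were those of Lias, which makes the lipoyl group used by the E2 enzymes, at a log2 fold change of -0.84 ± 0.12 (SE, adjusted p = 0.000489), and Iscu, the iron-sulfur cluster scaffold, at a log2 fold change of -0.78 ± 0.13 (SE, adjusted p = 0.00101). Of 8 carriers and shuttle enzymes, 5 fell, and the smallest p-values were those of Gpd1, the cytosolic glycerol-3-phosphate dehydrogenase, at a log2 fold change of -0.86 ± 0.16 (SE, adjusted p = 0.00235), and Slc25a12, an aspartate-glutamate carrier, at a log2 fold change of -0.61 ± 0.14 (SE, adjusted p = 0.00566). The other 3, named after their values were seen, were Slc25a11, Slc25a13 and Slc25a22. Of 13 other feeder enzymes, 11 were tested and 7 fell, and the smallest p-values were those of Mut, methylmalonyl-CoA mutase, at a log2 fold change of -0.76 ± 0.15 (SE, adjusted p = 0.00341), and Pccb, a propionyl-CoA carboxylase subunit, at a log2 fold change of -0.72 ± 0.15 (SE, adjusted p = 0.00363). Glul, glutamine synthetase, named after its values were seen, averaged 437 ± 42.3, 259 ± 56.2 and 415.1 ± 62.6 CPM in the 3 groups. In treated against obese hearts its log2 fold change was 0.68 ± 0.17 (SE), and its treated libraries lay above all obese ones. The adjusted p was 0.354 by edgeR and 0.391 by limma voom, neither passing, and 0.0265 by DESeq2.

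Similar groups of metabolic genes are given beside the module as counts and medians, with no test between groups. Against the control diet, 31 of 36 nuclear complex I subunits and 18 of 19 mitochondrial beta-oxidation genes fell in obese hearts, with median log2 fold changes of -0.73 and -0.92. Of 16 glycolysis genes, 1 rose and 6 fell, and their median was -0.19. In treated against control hearts, 14 of 36, 17 of 19 and 0 of 16 were lower, with medians of -0.54, -0.86 and -0.02.

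Some cell type markers were also called with diet, and their part in the results was not tested. Of all tested genes, 15.7% were called lower and 14.4% higher with diet. In lists this short, a count of 0 or 1 does not stand apart from these shares. Of 12 cardiomyocyte markers, 7 fell with diet, 0 rose and the median change was -0.57 (log2), and in bulk hearts fewer cardiomyocytes and less RNA per cardiomyocyte cannot be told apart. Of 8 endothelial markers 3 fell, of 7 smooth muscle and pericyte markers 2 fell, of 8 fibroblast markers 1 rose, and of 7 macrophage markers 0 passed. Of other lists, 1 of 6 lymphocyte and 1 of 3 skeletal muscle markers fell, 1 of 5 Schwann cell and 1 of 4 mesothelial markers rose, and 0 of 5 erythroid markers passed. Adipocyte markers, which rose for 4 of 6 tested, summed to 0.255 to 0.499 CPM in control, 0.411 to 9.06 in obese and 0.991 to 11.01 in treated hearts. Atrial markers summed to 44.2 to 112.2, 24.7 to 2175 and 58.0 to 5738 CPM, and 0 of 7 passed in any comparison. Obese replicate 3 and treated replicates 2 and 3 carried most of them. Without these 3 libraries the members' median log2 fold change in obese against control hearts was -0.60, against -0.67 with all libraries. Among the obese libraries kept, replicates 2 and 4 had a mean log2 CPM of atrial markers of 3.60 and 4.69, above the highest control value of 3.30. Obese replicate 1 had 0.60. This fit therefore did not even out the atrial markers, and their part was not tested.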

How the data were processed

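RNA of 11 mouse heart libraries was analysed from 1 table of raw read counts per gene identifier that the authors deposited. Per the submitters' processing notes, cutadapt, HISAT2 and StringTie and the build GRCm38 were used. The sources used here do not give their versions, the annotation, the counting rule or any use of strand. Symbols came from a GENCODE GRCm38 annotation, which named 55227 of the 55487 identifiers. The members and all gene lists were chosen with earlier results of these data known.

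Counts were tested with edgeR 4.0.16 (quasi-likelihood F-test, TMM scaling) in 1 fit over the 3 groups, after a filter at a minimum count of 10 and a minimum total of 15, which left 23779 genes. Each p-value was adjusted by Benjamini-Hochberg over these genes, with a threshold of 0.05. Library totals ran from 52.7 to 103.3 in units of 1000000 counts, so counting error was small beside the spread between libraries (common biological coefficient of variation 0.259). DESeq2 1.42.0 and limma 3.58.1 (voom) served as alternatives, run in R 4.3.3. Other alternatives changed scaling, filter, samples or covariates, and 1, plain library totals, was chosen after seeing the data. CPM are counts per 1000000 on TMM-scaled library sizes. Ratios used edgeR's log2 CPM with a prior count of 1, which is added to the counts and not to the CPM. The fitting script was tested on simulated data.

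By a naming rule, values in each library are given for the members with the smallest and the largest p of obese against control hearts in each role group, for members that went against most of their group, for both members of each ratio at the smallest possible p in that comparison, and for the 3 members with the smallest p in treated against obese hearts. Of the other pathway lists, the 2 genes with the smallest p and any that rose are named, and 1 gene of these lists is not reported here. Pairs of replicates within a group differed far beyond sampling noise, with chi-square per degree of freedom from 30.8 to 123.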

Additional observations from a re-analysis of the deposited data

Results flagged for a closer look

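In 84 groups of 4 libraries, values were searched for 1 library far from the other 3 by Dixon's criterion. The values were those of the 30 members, of the 8 ratios and of library measures. Chance meets the criterion in about 1 of 20 groups. It was met by 2. Got1 was 346.9 CPM in control replicate 2, against 483.2 to 510.4 CPM in the other control libraries. Obese replicate 4 had a total count of 67.25 in units of 1000000, against 52.74 to 54.97 in the other obese libraries. For 11 of the 14 members that overlapped between the control and obese groups, these libraries were the only pair that crossed.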

How the results depend on the processing

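With diet, 20 to 27 members were called lower under other scalings, filters, tests, fits without high-atrial libraries and the atrial covariate, and 18 to 28 in fits without 1 library, with 0 to 1 higher (Gpt2, without obese replicate 2). The intronic covariate gave 0 lower, a median of -0.061, and log2 fold changes above 0 for Dlat (0.064), Pdhx (0.020), Ogdh (0.12), Dlst (0.19), Sdhd (0.0078), Mdh2 (0.023) and Me3 (0.11). The cause was not tested. Plain totals, chosen after seeing the data, gave 11 lower, 2 higher, a median of -0.25 and values above 0 for Idh1 (0.044), Dlst (0.092) and Me3 (0.060), as the shift of all genes by 0.42 moves every value. Over all genes, 3429 were called higher and 3737 lower with TMM, 4378 and 2926 with upper-quartile scaling, and 9061 and 960 on plain totals.

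In treated against obese hearts, 0 members passed under any setting. Their median was -0.093 with the intronic covariate. In treated against control hearts, 11 were lower, and 18 with DESeq2, 1 with the atrial covariate, 0 without the 3 high-atrial libraries (which leaves 1 treated library, taken to vary like the other groups), 0 with the intronic covariate (median -0.16), and 2 lower with 1 higher on plain totals (median -0.071). Fits without 1 library gave 1 to 21 lower members, and 552 to 2722 lower among all genes. The 12 ratio differences given kept their direction under a prior count of 0.25 and without each library. Their p-values had little room to pass with so few libraries, so that none passed in these fits says nothing of stability.

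Same-numbered libraries correlated from -0.232 to 0.399 in their deviations from group means, and differently numbered ones from -0.408 to 0.192. Obese and treated libraries of the same number gave 0.399, 0.0694 and 0.336 for replicates 1 to 3. These values do not settle whether replicate numbers pair the libraries. With a replicate block the members' median in treated against obese hearts was 0.23, against 0.11 without it. With a replicate block, 27 members were lower with diet and 12 in treated against control hearts. Thinning all libraries once to the smallest total gave 26 and 12, against 26 and 11 with all counts. Thinning cannot show whether more depth would have added calls. Ratios were limited by 3 or 4 libraries a group, which allow no p under 0.0286.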
